A study of Arabidopsis thaliana with 10 samples.

Results

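The 73 genes described here were chosen by their measured values as genes raised reversibly in warm dim growth. Each had a probe set that names it alone and that met the same limits in both lines. Its log2 value was at least 1.5 higher on day 2 than on day 1, and on day 8 and again on day 12 it was at least 1 lower than on day 2. Of 22746 probe sets tested, 154 met these limits, and 73 of them are described here. Of the others, 65 are not named in the probe table used here, 5 name several genes and 11 were left out by name. The opposite pattern, lowered on day 2 and back by the same limits, was met by 21 probe sets naming 1 gene. Because the values of days 1, 2, 8 and 12 chose the genes, the rise on day 2 and the fall after it are given as descriptions with no test.

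The study followed Arabidopsis thaliana Columbia plants of 2 lines on Affymetrix arrays. Pap plants carried 35S:PAP1, a transgene that makes the MYB factor PAP1, an activator of anthocyanin pigment synthesis, in most tissues from the constitutive 35S promoter. Hex was read as the empty vector control, because the series names only these lines. RNA came from pooled leaf tissue. Each line was sampled on days 1, 2, 7, 8 and 12 and each sample has a single array, 10 in all, and no label says how many independent transformants stand behind either line. The labels give the day and not the growth regime, which was read from the series text. On this reading the plants of day 1 had grown at 22 °C under an irradiance of 440 µmol m-2 s-1. Days 2 and 7 fell into 6 days of warmth and dim light, with a day temperature of 30 °C and an irradiance of 150 in the same unit. Days 8 and 12 followed in the cold, at 15 °C, with the irradiance again at 440. Temperature and light changed together, and regime, day and plant age cannot be told apart. Nothing says that arrays are independent cultures, so p-values measure only the spread between these arrays. With 1 array per line and day, this spread includes any change of the line difference over the days, and is not a spread between replicates.

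Leaves that shift from bright to dim light make less sugar, and plant cells answer a shortage of sugar through the kinase SnRK1, which slows growth and turns on genes for breaking down stored carbon, lipids and amino acids. Warmth acts on leaf gene expression as well, through heat shock factors and through the PIF transcription factors that drive elongation growth. The genes selected here include members that touch on carbon status, on the cell wall and on defence, but most carry a locus name only.

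On 8 arrays the labelling (poly-A) controls had medians between 4.45 and 5.35, while on the day 7 arrays they were lower, at 3.4 in Hex and 3.35 in Pap. The hybridisation controls lay between 8.8 and 9.3 on all 10 arrays. The Pap day 2 array stood apart in its 25S rRNA signal, 9.7 against 4.7 to 6.7 elsewhere, and in its actin 5' minus 3' difference, -2.5 against -1.5 to -1.2. Their part in the results was not tested. Of 3 leaf markers, RCA (Rubisco activase) alone was usable, and it read 13.6 to 13.8 on every array. The root and seed coat genes EXPA7 and BAN stayed at or below 3.9, the root gene PYK10 lay between 4.1 and 5.1, and its highest values were those of day 7. In what follows, 3.9 is used as a floor, chosen after the values were seen. At least 1 array at or under it was found for 16 of the 73 genes, and for 7 the day 1 value lay there in 1 line or both, so that their rise on day 2 is a lower bound.

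Within the limits that chose them, the 73 genes differed widely in size of rise. The mean of both lines on day 2 lay 1.5 to 4.4 log2 units above day 1, with a median of 2.2, which corresponds to 2.83-fold to 21.1-fold and a median of 4.59-fold. The median level of the genes went from 5.6 on day 1 to 8.2 on day 2 in Hex and from 5.9 to 8.0 in Pap. The day 2 rise was larger in Hex for 53 genes and in Pap for 17. The same count over all probe sets is not given here. Of all probe sets, 1265 in Hex and 1039 in Pap lay at least 1 above day 1 on day 2. The Pap day 2 levels come from the array with the unusual rRNA and actin signals, whose part was not tested.

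**Figure D1:**
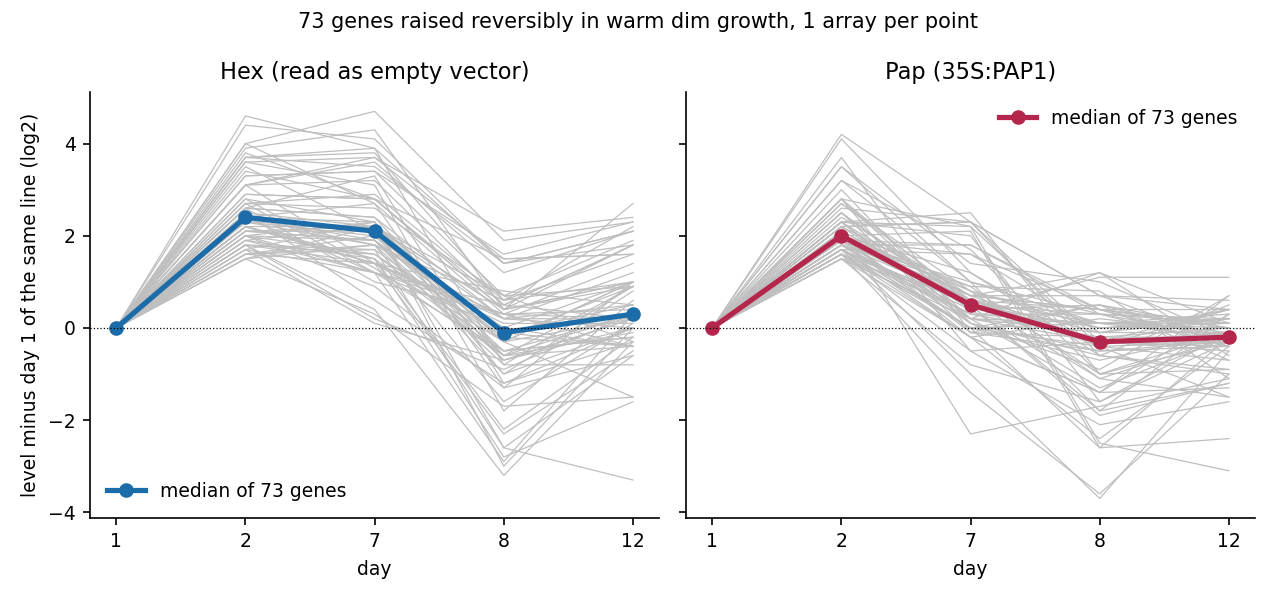
Level of each of the 73 genes minus its own day 1 level (log2, vertical axis) on days 1, 2, 7, 8 and 12 (horizontal axis, equally spaced), in Hex on the left and Pap on the right. Grey lines are single genes with 1 array per point, and the thick line is their median, which on day 7 was 2.1 in Hex and 0.5 in Pap.

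AKINBETA1 encodes a beta subunit of the SnRK1 kinase complex. Its log2 levels in Hex were 7.3, 9.5, 8.8, 5.1 and 7.1 on days 1, 2, 7, 8 and 12, and in Pap 7.3, 9.3, 7.1, 4.9 and 6.9. The lines lay within 0.2 of each other on days 1, 2, 8 and 12. On day 7 the Hex array was still well above its day 1 level while the Pap array was just below it.

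SFP2 belongs to the family of sugar transporters. Its levels were 6.0, 7.6, 7.8, 6.2 and 6.2 in Hex and 5.6, 7.3, 7.2, 6.0 and 5.3 in Pap. Both lines held the day 2 level on day 7, and Pap was the lower line on all 5 days.

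EXO and EXLA2 act at the cell wall. EXO (EXORDIUM), a brassinosteroid-responsive extracellular protein needed for cell expansion, read 8.6, 12, 11.4, 9.0 and 10.4 in Hex and 9.9, 12.1, 7.6, 8.2 and 8.8 in Pap. Its value was the highest of the 73 probe sets on day 2 in both lines, and its Pap level on day 7 was below every other level it had in either line. EXLA2, an expansin-like protein, read 4.7, 6.9, 6.1, 5.5 and 5.2 in Hex and 5.3, 7.3, 5.2, 5.1 and 5.1 in Pap. Its Pap level on day 7 was near that of day 1, and those of days 8 and 12 were as well.

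The remaining genes with symbols are linked to defence and signalling. WRKY22, a transcription factor of the immune response, read 5.0, 8.6, 8.7, 7.1 and 7.4 in Hex and 6.0, 8.3, 6.2, 7.2 and 5.4 in Pap. On day 8 it was the gene farthest above day 1, by 1.65 in the mean of the lines. PTI1-4, a cytoplasmic kinase related to the tomato kinase Pti1, read 7.4, 9.6, 9.6, 7.6 and 7.9 in Hex and 7.5, 9.5, 8.3, 7.6 and 7.3 in Pap. RALFL22, a secreted peptide of the RALF family that signals through receptor kinases, read 7.8, 10.1, 9.6, 8.4 and 8.8 in Hex and 8.0, 10.1, 8.7, 8.4 and 8.4 in Pap. Both had nearly the same level in the lines on days 1, 2 and 8, and lay lower in Pap on day 7. PDF1.4, a gene of the defensin family, read 4.1, 7.6, 6.2, 3.6 and 3.9 in Hex and 4.1, 7.3, 5.8, 3.1 and 4.0 in Pap. Its lines ran close together on all 5 days, and its mean rise on day 2 was 10.2-fold, with the levels of days 8 and 12 near or under the floor.

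**Figure D2:**
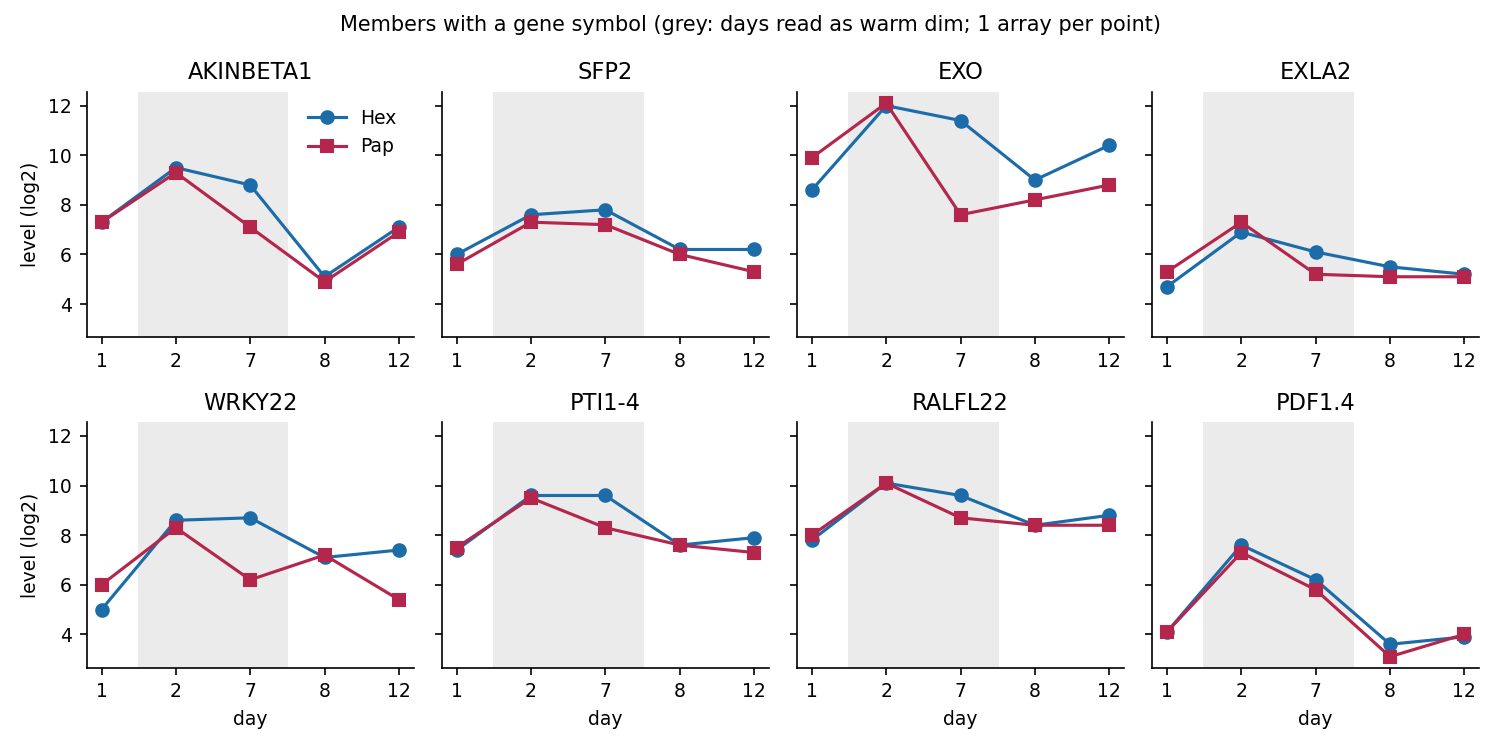
Log2 level (vertical axis) of the 8 genes that carry a symbol, on days 1, 2, 7, 8 and 12 (horizontal axis, equally spaced), for Hex (circles) and Pap (squares), with 1 array per point and the days read as warm dim in grey. On day 7 all 8 lie lower in Pap, EXO by the widest gap (11.4 in Hex and 7.6 in Pap) and PDF1.4 by the narrowest (6.2 and 5.8).

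The largest rises on day 2 were found among genes known here by locus only. AT1G62510 read 4.6, 9.2, 8.5, 3.8 and 3.8 in Hex and 4.6, 8.8, 6.9, 4.0 and 3.7 in Pap, a mean rise of 21.1-fold on day 2 with levels near the floor on days 8 and 12. AT1G72060 read 6.2, 10.2, 8.9, 4.9 and 7.2 in Hex and 5.9, 9.4, 6.9, 4.1 and 6.2 in Pap. In it the level on day 8 was below that of day 1 in both lines, and the level on day 12 was above it. AT2G17660 read 3.1, 7.1, 7.8, 5.0 and 5.4 in Hex and 3.6, 7.1, 5.0, 4.6 and 3.4 in Pap, so its day 1 levels were under the floor. AT3G55840 read 4.3, 8.0, 8.2, 5.7 and 6.4 in Hex and 4.9, 8.6, 4.8, 5.4 and 4.7 in Pap. Both held or passed the day 2 level on day 7 in Hex, whereas in Pap the first kept a part of the rise and the second none.

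Other genes of large rise were AT2G32150, AT2G34930, AT5G39580, AT2G29500, AT1G15010 and AT5G19120, at 8.28-fold to 10.9-fold in the mean of the lines. AT2G32150 read 7.9, 11.6, 11.7, 8.5 and 10.1 in Hex and 8.2, 11.4, 9.2, 8.3 and 8.3 in Pap. AT2G34930 read 5.5, 9.9, 9.6, 6.9 and 7.3 in Hex and 5.9, 8.4, 6.3, 7.0 and 7.0 in Pap. AT2G29500 read 4.2, 6.4, 5.6, 3.9 and 4.4 in Hex and 4.1, 8.2, 5.3, 3.5 and 4.6 in Pap. It was the gene whose day 2 level in Pap most exceeded that in Hex, by 1.8, and that level comes from the array with the unusual rRNA and actin signals.

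At the limits of the rule, 11 genes met at least 1 limit exactly. AT3G49790 was exactly 1.5 above day 1 on day 2 in both lines, AT4G25260 and AT2G46250 in Hex, and AT3G07350, AT5G19110 and AT4G32800 in Pap. A further 16 probe sets naming 1 gene missed by 0.1, the step of the deposited values. Among these, AT4G28085 missed through day 12 in Hex, AT1G59910 through day 8 in Pap and AT5G64870 through its rise in Pap. WES1 (GH3.5), an enzyme that conjugates auxin to amino acids, also missed through its rise in Pap, with 5.3, 8.3, 8.1, 5.5 and 6.9 in Hex and 6.8, 8.2, 6.6, 5.8 and 6.6 in Pap.

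The day 7 arrays took no part in the choice of the genes and show how far the raised levels lasted into the warm dim regime. In Hex 67 of the 73 genes were still at least 1 above day 1 on day 7, and in Pap 20 were. Over all probe sets 1477 were in Hex and 728 in Pap, so fewer were raised in Pap on the array as a whole as well. The median level was 2.1 above day 1 in Hex, with a range of 0.1 to 4.7, and 0.5 above it in Pap, with a range of -2.3 to 2.5. No gene in Hex was at or under its day 1 level, whereas 18 in Pap were. Strictly below it were 0 genes in Hex and 13 in Pap, beside 10833 and 11108 of all 22746 probe sets. From day 2 to day 7 the median difference was -0.2 in Hex and -1.6 in Pap. On a scale on which 0 is the day 1 level and 1 the day 2 level of the same line, the median gene stood at 0.905 in Hex and 0.263 in Pap on day 7. Since the day 1 and day 2 arrays chose the genes, and low day 1 and high day 2 values were favoured by that choice, these differences are descriptions with no test. With 1 array per line on day 7, they also carry no replicate.

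The genes parted into groups by how much of the rise was kept on day 7. At least 0.5 of the rise was kept in both lines by 15 genes, in Hex only by 48, in Pap only by 2 and in neither by 8. Of the 15, AT2G05540 read 7.9, 10.5, 11.2, 6.7 and 7.9 in Hex and 8.1, 10.4, 10.6, 7.1 and 7.2 in Pap. AT5G40450 read 7.6, 9.3, 9.9, 4.6 and 7.6 in Hex and 7.6, 9.6, 9.7, 5.0 and 7.4 in Pap. Both were above their day 2 level on day 7 in both lines. AT2G38800, AT2G46250, AT2G42040, AT3G24100, AT3G05900 and SFP2 had day 7 levels at or above those of day 2 in the mean of the lines.

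AT4G16563 and AT1G62480 were the genes that kept at least 0.5 of the rise in Pap only. AT4G16563 read 5.2, 7.8, 6.2, 5.5 and 5.4 in Hex and 5.1, 7.3, 7.4, 5.8 and 5.7 in Pap, and was the gene that most exceeded Hex in Pap on day 7, by 1.2. In AT1G62480 the lines differed little, with 10 in Hex and 10.2 in Pap on day 7. The 8 genes that kept less than 0.5 of the rise in both lines were AT3G20340, AT5G48490, AT2G14900, AT3G62950, AT5G50335, AT5G56100, AT3G15630 and AT4G25260. Of these AT5G48490 read 5.6, 7.4, 5.8, 4.7 and 5.9 in Hex and 5.4, 8.4, 5.5, 4.9 and 5.1 in Pap, and its day 7 levels were close to those of day 1.

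**Figure D3:**
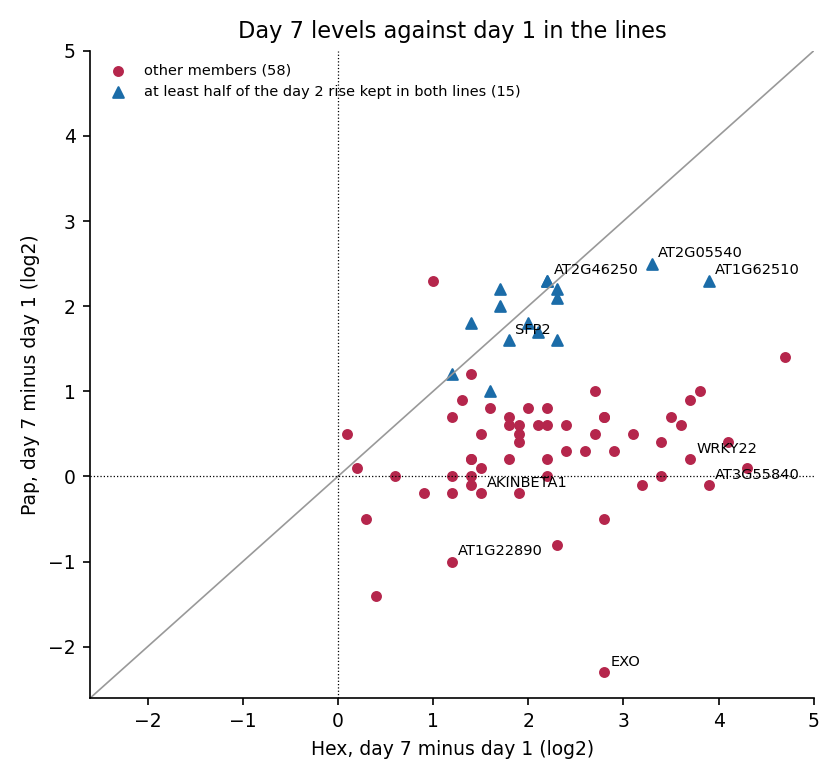
Day 7 minus day 1 level (log2) of the 73 genes in Pap (vertical axis) against Hex (horizontal axis), 1 array per line and day, with equality as a diagonal line. Triangles are the 15 genes that kept at least 0.5 of their day 2 rise in both lines. Most other points lie below the diagonal, EXO lowest at -2.3 in Pap and 2.8 in Hex.

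Pap was at least 1 below Hex on day 7 for 46 of the 73 genes, 63% of them, against 3.83% of all probe sets tested. It was at least 1 above Hex for 1 gene, AT4G16563, or 1.37%, against 2.33% of all probe sets. The lines' median difference over the genes, Pap minus Hex, was 0.1, -0.2, -1.4, -0.1 and -0.4 on days 1, 2, 7, 8 and 12, while over all probe sets it was 0 on each day. On day 7 the quartiles were -2.1 and -0.6 for the genes and -0.2 and 0.2 for all probe sets. The day 7 difference was below 0 for 65 genes and above 0 for 7.

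EXO had the lowest difference on day 7, -3.8, and was followed by AT2G25460 at -3.5, AT3G55840 at -3.4, AT2G34930 at -3.3 and AT1G15010 at -3.2. AT2G25460 read 4.4, 7.7, 7.8, 5.1 and 6.3 in Hex and 4.3, 5.9, 4.3, 4.8 and 4.3 in Pap, so that its Pap level was back at day 1 by day 7. AT1G15010 read 7.0, 10.9, 11.3, 7.4 and 9.7 in Hex and 8.0, 10.3, 8.1, 7.4 and 7.0 in Pap. Across the 73 genes the day 7 difference and the day 12 difference correlated (Pearson's r 0.66, Spearman's rho 0.64), and across all probe sets r was 0.52 and rho 0.28. These are correlations across genes measured on the same 4 arrays, and genes are not independent replicates.

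The lower day 7 levels in Pap were not particular to the reversible genes. The other 81 probe sets that met the same limits had a median difference of -1.1 on day 7. A further 125 probe sets that were at least 1.5 higher on day 2 than on day 1 in both lines, but did not meet the limits for days 8 and 12, had a median of -1.9 on day 7 and of -1.3 on day 12. The low poly-A controls of day 7 were like in the lines, while the 25S rRNA signal of day 7 was 6.5 in Hex and 4.8 in Pap. Over all probe sets the levels of the lines correlated at 0.973 on day 7 and at 0.986 to 0.991 on the other days. The array medians of all 10 arrays lay between 5.5 and 5.7, but the processing brings arrays to a common distribution, so these medians cannot show an array effect. The part of the arrays in the day 7 difference was not tested.

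**Figure D4:**
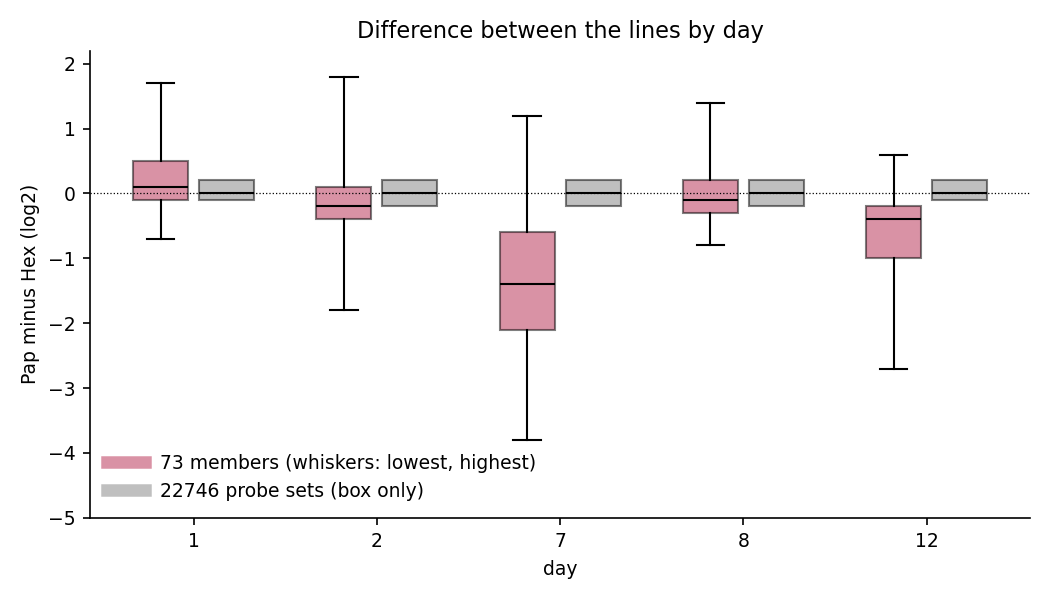
Pap minus Hex difference (log2, vertical axis) on each day (horizontal axis, equally spaced) for the 73 genes, with boxes from the lower to the upper quartile, the median as a line and whiskers to the lowest and highest gene, and for all probe sets tested as boxes without whiskers. The median of the genes is -1.4 on day 7, and that of all probe sets is 0 on every day.

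Whether the difference between lines on day 7 departs from that of the other 4 days was tested with limma on the 5 daily differences, over all probe sets, with Benjamini-Hochberg adjustment. At an adjusted p under 0.05, 0 of the 73 genes and 0% of all probe sets were called in either direction. At an unadjusted p under 0.05, 46 of the genes, or 63%, were lower in Pap on day 7 relative to the other days, against 5.32% of all probe sets, and 1 (AT4G16563) was higher, against 5.11%. With the arrays centred on their medians these calls over all probe sets moved from 1211 lower and 1162 higher to 1901 lower and 731 higher. The median difference was -1.275 over the genes and 0 over all probe sets. The fit has 3 residual degrees of freedom. Its other 4 days chose the genes, and because the rule asked the same of both lines on those days, it also bears on the spread of the daily differences and so on the unadjusted p-values. The unadjusted shares of the genes and of all probe sets are therefore not on equal terms, and are given as descriptions.

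AKINBETA1 had the smallest p of the genes, with a day 7 difference of -1.55 ± 0.186 (SE) relative to the other days and an adjusted p of 0.270. AT1G54740 followed at -2.0 ± 0.240, also with an adjusted p of 0.270. It read 4.3, 6.9, 6.7, 3.7 and 4.2 in Hex and 3.8, 6.5, 4.4, 3.4 and 4.2 in Pap. EXO had the largest difference, -3.55 ± 1.01, with an adjusted p of 0.378. None of these differences passed the threshold.

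The line effect over all 5 days asks whether the genes differed between Pap and Hex whatever the day. With day as a block, limma called 0 of the 73 genes at an adjusted p under 0.05, against 0.0659% of all probe sets called higher and 0.0132% called lower in Pap. At an unadjusted p under 0.05, 14 genes (19.2%) were lower in Pap, against 3.01% of all probe sets, and 1 gene (AT2G14900) was higher, against 3.97%. The median effect was -0.40 over the genes and 0.02 over all probe sets, and without the day 7 arrays that of the genes was -0.175. Here too 4 of the 5 days chose the genes, so the unadjusted shares are descriptions, not on equal terms with those of all probe sets. Pap was lower on all 5 days for 9 genes, among them SFP2, AT1G72060, AT4G19430 and AT2G25460. The same count over all probe sets is not given here, so the 9 cannot be read as a trait of these genes.

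AT4G19430 had the smallest p for the line effect, -0.48 ± 0.0965 (SE), with an adjusted p of 0.272. Its levels were 7.5, 9.9, 9.8, 4.9 and 4.2 in Hex and 6.9, 9.7, 9.1, 4.4 and 3.8 in Pap. AT2G25460 had the most negative effect, -1.54 ± 0.455, with an adjusted p of 0.577. AT2G14900 lay higher in Pap by 0.68, with 6.5, 9.6, 7.9, 4.2 and 6.0 in Hex and 8.2, 9.8, 8.2, 5.6 and 5.8 in Pap. Most of its difference came from days 1 and 8.

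After the change to bright light at low temperature the genes lay at different levels relative to day 1. The rule set day 8 and day 12 below day 2 but said nothing of day 1, so the distances to day 1 are descriptions that share the day 1 arrays with the choice of the genes. On day 8, 30 genes in Hex and 38 in Pap were within 0.5 of day 1. In both lines 16 genes were at least 1 below day 1 on day 8, and 4 genes, WRKY22, AT2G17660, AT2G34930 and AT2G03240, were at least 1 above it. On day 12, 34 genes in Hex and 52 in Pap were within 0.5 of day 1, and 25 in Hex but 1 in Pap were at least 1 above it. Over all probe sets 1129 in Hex and 407 in Pap were at least 1 above day 1 on day 12, so the lines were unequal there as well.

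The 16 genes that undershot day 1 on day 8 included AKINBETA1, AT3G15630, AT1G22890, AT5G40450, AT2G15960 and AT4G19430. AT3G15630 read 8.0, 9.8, 8.4, 4.8 and 7.7 in Hex and 8.3, 9.9, 6.9, 4.7 and 7.3 in Pap. AT1G22890 read 7.5, 9.4, 8.7, 4.6 and 7.8 in Hex and 7.5, 9.2, 6.5, 3.8 and 7.0 in Pap. AT2G15960 read 9.7, 11.5, 11.4, 7.1 and 9.1 in Hex and 9.1, 11.4, 11.1, 7.5 and 9.0 in Pap. In all 3 the day 8 levels were the lowest of both lines, and the day 12 levels differed from those of day 1 by 1 or less. Of the 16 genes, 15 had a higher level on day 12 than on day 8 in both lines, or 93.8%, the exception being AT4G19430. Of all 704 probe sets equally low on day 8, 90.8% had one, so the share is not particular to these genes, and picking low day 8 levels favours it.

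The rule set no order between days 8 and 12. The difference between them was tested with limma over all probe sets, with line and day as terms. The arrays of days 8 and 12, and others in the fit, took part in choosing the genes. Because the rule asked the same of both lines, it also bears on the spread left after line and day. It so bears on the p-values of the 73 genes, here and for the single genes named below. At an adjusted p under 0.05, 10 of the 73 genes (13.7%) rose from day 8 to day 12, against 10.7% of all probe sets, and 3 (4.11%) fell, against 9.44%. The share that rose is near that of all probe sets, and the share that fell rests on 3 genes. For the reason given, the shares of the genes and of all probe sets are not on equal terms, and are descriptions. The median difference was 0.45 over the genes and -0.05 over all probe sets. The spread of this fit includes how the line difference changed over the days, day 7 included. Without either array of day 7, 18 genes were called, 15 higher and 3 lower. Without either array of day 1 it was 11 genes, and without either of day 2 it was 12. Without single arrays of days 8 and 12 fewer genes were called, 5 without Hex day 8, 6 without Hex day 12, 8 without Pap day 8 and 5 without Pap day 12.

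AT1G22890 rose most, by 3.20 ± 0.455 (SE) on the log2 scale or 9.19-fold, with an adjusted p of 0.00315. AT3G15630 rose by 2.75 ± 0.380 (adjusted p 0.00291) and AT5G40450 by 2.70 ± 0.184 (adjusted p 0.000372). AKINBETA1, the SnRK1 subunit, rose by 2.0 ± 0.376, or 4-fold, with an adjusted p of 0.00930. Its call was kept in 10 of 14 alternative fits and lost without any single array of day 8 or day 12, where the adjusted p reached 0.105. AT1G72060, AT3G15770, AT2G15960, AT5G57910 and AT3G49790 rose by 1.30 to 2.2. Of these AT2G15960 was called in all 14 alternative fits, AT1G72060 in 11, AT3G15770 and AT5G57910 in 10 each and AT3G49790 in 7. In these tallies, leaving out the Hex or the Pap array of day 1, 2 or 7 gives the same fit. Those fits are therefore counted in pairs, and the tallies hold fewer distinct fits than their number. PDF1.4 rose by 0.60 ± 0.176, with an adjusted p of 0.0498, a call that was lost in each of the 13 alternative fits that tested it.

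AT3G24100 fell by 1.15 ± 0.216 from day 8 to day 12 with an adjusted p of 0.00937. It read 6.4, 8.0, 8.1, 6.1 and 4.9 in Hex and 6.2, 8.5, 8.4, 5.8 and 4.7 in Pap, and ended below day 1 in both lines. Its call was kept in 11 of 14 alternative fits, with an adjusted p of up to 0.105. AT3G05900 fell by 1.00 ± 0.122 (adjusted p 0.00183), with 4.6, 6.9, 6.8, 5.3 and 4.3 in Hex and 4.4, 6.6, 6.7, 5.1 and 4.1 in Pap. AT4G19430 fell by 0.65 ± 0.153 (adjusted p 0.0222), and on day 12 its Pap level was under the floor. Its call was kept in 9 of 14 alternative fits, and lost without any single array of day 8 or day 12. It was also lost with no line term in the fit, where the adjusted p was 0.182. These 3 genes had also kept most of their rise on day 7 in both lines.

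**Figure D5:**
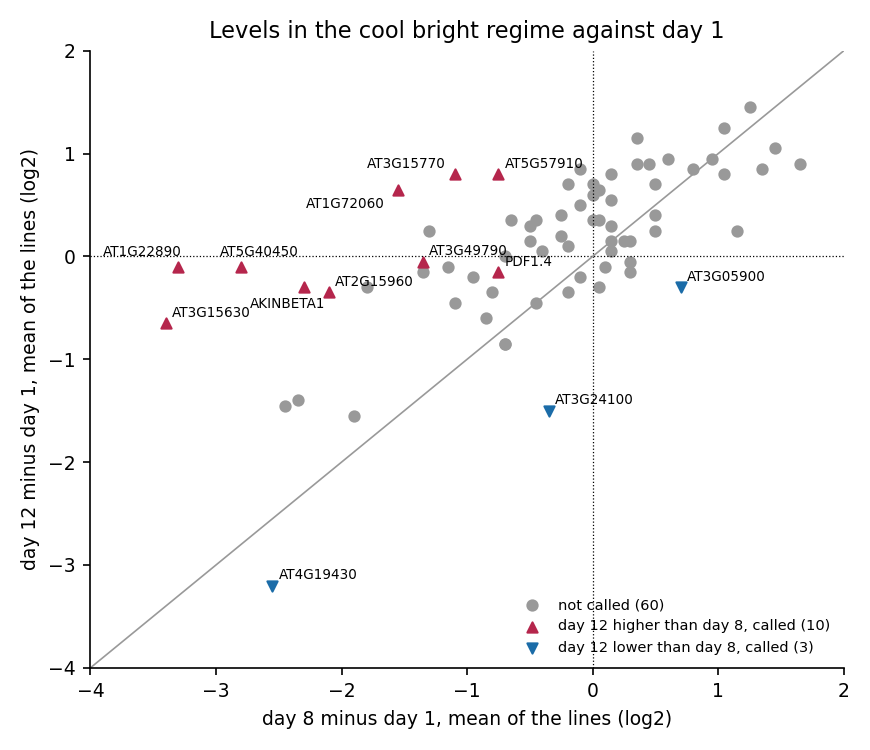
Mean of the lines on day 12 minus day 1 (vertical axis) against day 8 minus day 1 (horizontal axis), log2, for the 73 genes, with equality as a diagonal line. Upward triangles are the 10 genes called higher and downward triangles the 3 called lower on day 12 than on day 8. AT1G22890, AT5G40450, AKINBETA1 and AT3G15630 lie far below 0 on day 8 and near it on day 12.

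The levels after day 8 were also counted in each line. In Hex 59 genes (80.8%) were higher on day 12 than on day 8 and 11 (15.1%) lower, beside 40.4% and 48.5% of all probe sets. In Pap 36 (49.3%) were higher and 29 (39.7%) lower, beside 42.3% and 46.1%. The direction was the same in both lines for 42 genes (57.5%) and opposite for 20 (27.4%), beside 62.6% and 17.0% of all probe sets. WRKY22, for example, went from 7.1 to 7.4 in Hex and from 7.2 to 5.4 in Pap. The 125 raised probe sets outside the limits for days 8 and 12 had medians above day 1 of 1 and 1.9 on these days in Hex. In Pap theirs were 0.8 and 0.3. For the other 81 probe sets that met the limits, the medians were -0.5 and 0.2 in Hex and -0.7 and -0.2 in Pap. Days 8 and 12 took part in the choice of the genes, so these counts are descriptions. With 1 array per line and day, the difference between the lines' changes was not tested.

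Other genes of the pathways named above were looked up in lists compiled with earlier results of these data known. Of 23 genes of dark and sugar starvation, 3 had a probe set naming them alone, and 2 of these, AKINBETA1 and EXO, belong to the 73. The third, bZIP53, a transcription factor of the low-energy response, read 9.6, 10.4, 10.8, 9.2 and 10.7 in Hex and 9.8, 11.0, 9.7, 9.7 and 10.1 in Pap. It was not called in any of the 3 tests.

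Amino acid catabolism had 7 of 14 listed genes on named probe sets, and none is among the 73, while MCCA and IVD were left out by name. On day 2, 5 of the 7 lay above day 1 in both lines, ALDH6B2 by only 0.6 in Hex and 0.2 in Pap. Of all 22746 probe sets, 9016 lay above day 1 in Hex and 9157 in Pap, each line counted alone. MGL, which breaks down methionine, read 5.4, 8.2, 6.6, 5.7 and 5.4 in Hex and 5.9, 7.1, 6.3, 5.2 and 5.0 in Pap. LKR, the first enzyme of lysine breakdown, read 6.0, 7.7, 7.9, 5.4 and 7.0 in Hex and 6.6, 7.2, 6.8, 5.4 and 6.3 in Pap. From day 8 to day 12, 3 of the 7 rose and 0 fell, in a test that called 10.7% of all probe sets higher and 9.44% lower. LKR rose by 1.25 (adjusted p 0.0448), ETFQO, which passes electrons from this breakdown to the respiratory chain, by 0.75 (adjusted p 0.0366) and ETFBETA, its partner, by 0.65 (adjusted p 0.0156). None of the 7 was called in the line or day 7 tests.

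The other lists had few usable genes. Of 16 shade and PIF target genes, 2 were usable. IAA29, an auxin-responsive repressor, read 4.4, 4.4, 4.4, 3.8 and 4.0 in Hex and 4.5, 5.2, 4.6, 4.0 and 4.2 in Pap, with no difference between days 1 and 2 in Hex. FHL, a nuclear import factor of phytochrome A, read 3.9, 5.4, 6.2, 3.7 and 4.1 in Hex and 4.2, 5.0, 5.0, 4.0 and 3.7 in Pap. Of 18 clock genes GI alone was usable, and its levels lay between 9.5 and 10.2 on all arrays. Of 15 auxin response genes, GH3.3 and GH3.5 were usable. GH3.3, which like GH3.5 conjugates auxin, rose by 1.95 from day 8 to day 12 with an adjusted p of 0.00705.

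The 73 genes were spread over all 5 chromosomes, with 15, 15, 17, 11 and 15 on chromosomes 1 to 5 by the RefSeq gene table. This is 20.5%, 20.5%, 23.3%, 15.1% and 20.5% of them, beside 26.4%, 15.3%, 20.6%, 14.4% and 23.4% of all genes named on the array. AT5G19110 and AT5G19120 are direct neighbours, and AT1G62480 and AT1G62510 have 2 protein-coding genes between them. AT5G19110 read 4.2, 6.6, 5.4, 4.5 and 4.6 in Hex and 4.4, 5.9, 4.2, 4.6 and 4.3 in Pap. AT5G19120 read 7.4, 11.0, 10.5, 5.6 and 8.0 in Hex and 8.1, 10.6, 8.6, 6.3 and 6.9 in Pap. On day 8 AT5G19110 lay near its day 1 level in both lines, while AT5G19120 lay below its own. The median gene length was 1933 bases for the 73 genes and 2109 for 12268 named genes.

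AT2G30600 is the gene among the 73 with a second probe set naming it alone. The set that met the rule read 7.1, 9.2, 9.0, 6.4 and 7.3 in Hex and 7.0, 9.3, 7.6, 6.7 and 7.4 in Pap. The second set read 7.5, 9.5, 9.4, 6.7 and 7.3 in Hex and 7.4, 8.1, 7.7, 7.4 and 7.8 in Pap. Their courses were alike in Hex, but in Pap the second set was 0.7 higher on day 2 than on day 1 and missed the rule.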

How the data were processed

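The authors deposited log2 values with 1 decimal for each probe set, computed by RMA, per the submitters' processing notes. This method subtracts background, brings all arrays to a common distribution and combines the probes of a set, and its version is not given in the sources used here. An array has no read depth, and precision is limited by the 10 arrays. Of 22810 probe sets, 64 controls were left out. Genes were named from the platform annotation (13513 probe sets with 1 gene, 503 with several, 8730 not listed) and matched to the RefSeq gene table by Entrez identifier (72 of the 73) or symbol (RALFL22). The files name no genome build, so no coordinates are given.

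The 3 tests used limma 3.58.1 (lmFit, eBayes; R 4.3.3) over all 22746 probe sets, with Benjamini-Hochberg adjustment and a threshold of 0.05, and were tested on simulated data; tables were made with Python 3.11.15. They were the line effect with day as a block, the day 7 line difference against the other days, and day 12 minus day 8 with line and day as terms. Between the lines, deviations from the line means correlated at 0.525, 0.774, 0.488, 0.843 and 0.752 on days 1, 2, 7, 8 and 12. These deviations hold the change with day and regime that the lines share. They do not show that the arrays of a day are a matched pair.

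The genes, the lists and the tests were chosen with earlier results of these data known. Any of the 73 genes could be named, with full values for those with the largest rise, a call in a test, or the most extreme day 7 or day 12 minus day 8 difference, for those with a symbol, at a limit of the rule or in a list, and other genes came from the lists and the limits alone. A planned motif search in promoters was not run, as promoter sequences were not used here. The alternatives were centred arrays, bright probe sets, a trended spread, each array or day left out, and other limits of the rule. Fits were also run without the day block for the line effect, and without the line term for day 12 minus day 8.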

Additional observations from a re-analysis of the deposited data

Results flagged for a closer look

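Some values stood apart from the other days of the same line, by a gap larger than Dixon's 95% limit for 5 values, which chance exceeds in about 1 group in 20. The poly-A control median of Hex was 3.4 on day 7. The actin 5' minus 3' difference of Pap was -2.5 on day 2. EXPA7, used for the floor, read 3.5 in Pap on day 7.

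For 13 of the 73 genes the day 7 level lay above day 1 in Hex and below it in Pap, with 1 array each, and this difference was not tested. Of all 22746 probe sets, 9390 lay above day 1 in Hex and 11108 lay below it in Pap. How many of them did both is not given here. EXO was at -2.3 in Pap and 2.8 in Hex. AT3G15630 was at -1.4 and 0.4, AT1G22890 at -1.0 and 1.2, and AT3G07350 at -0.8 and 2.3. AT5G39580 was at -0.5 and 2.8, and AT4G25260 at -0.5 and 0.3. AT3G10720, AKINBETA1, AT5G19110 and AT5G56100 were each at -0.2 in Pap, and at 1.9, 1.5, 1.2 and 0.9 in Hex. AT3G55840, AT3G05320 and EXLA2 were each at -0.1 in Pap, and at 3.9, 3.2 and 1.4 in Hex.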

How the results depend on the processing

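The number of genes that met the rule was 73 with arrays centred on their medians, 33 with a rise of 2, 145 with a rise of 1 and 44 with falls of -1.5. The count of genes at least 1 lower in Pap on day 7 was 50 with centred arrays, and 34 at a limit of 1.5. The median day 7 position was 0.217 in Pap with centred arrays, against 0.263. In the line and day 7 tests, 0 of the 73 genes were called under every alternative run. For the line effect, ignoring the replicate block left 8 of all probe sets called, against 18. From day 8 to day 12, 13 genes were called, 11 with no replicate block, and 5 to 18 with 1 array left out. AT1G22890, AT3G15630, AT5G40450, AT2G15960 and AT3G05900 stayed called in each fit that tested them, AT3G49790 in 7 of 14, and no call changed direction. Fits without the Hex or the Pap array of day 1, 2 or 7 are the same and are counted in pairs here. The cause of the lost calls was not tested beyond the smaller number of arrays. Dim genes near the floor have compressed differences.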
